A study of Mus musculus with 10 samples.

Results

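Circadian clock genes are read here through RBPJ binding: 9 genes of the feedback loop that the CLOCK and BMAL1 proteins drive through E-boxes (Per1, Per2, Cry1, Cry2, Nr1d1, Nr1d2, Bhlhe40, Bhlhe41 and Clock) out of 21938 protein-coding mouse genes. They held 21 of the 11094 RBPJ peaks in the data. The cells are RD1 cells, brain pericytes (mural cells of capillaries) according to the labels, and RBPJ-bound DNA was pulled down with an antibody and sequenced (ChIP-seq). The series has 10 samples in 5 groups of 2 replicates (input, histone H3, H3K4me1, H3K4me3 and RBPJ), all untreated and grown on collagen I in pericyte medium. Peak lists came with the RBPJ samples and were identical for replicates 1 and 2, so they counted as 1 list, the remaining 8 samples were not analysed here, and no value below has a spread between replicates. The study describes the cells of its RBPJ ChIP-seq as primary brain pericytes in culture, and its methods derive such cultures from adult mice homozygous for a floxed Rbpj allele, with many passages before use and a check of pericyte markers. The name RD1 comes from the labels. No RNA was measured in this series, so the label "brain pericytes" could not be checked against marker expression here, and the circadian phase of the cells is not given in the sources used here.

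The mammalian clock is a transcriptional feedback loop. A heterodimer of the basic helix-loop-helix proteins CLOCK and BMAL1 binds E-boxes and activates the Per and Cry genes, whose protein products then repress the heterodimer. The same E-boxes drive the nuclear receptors REV-ERBα and REV-ERBβ (Nr1d1 and Nr1d2), which repress Bmal1 through ROR elements, and the E-box-binding repressors DEC1 and DEC2 (Bhlhe40 and Bhlhe41). RBPJ is the DNA-binding protein of Notch signalling and recognises a different core, TGGGAA.

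The genes were chosen from a measured property of the peaks themselves, the frequency of E-box letters in peak centres. Among all hexamers (reverse complements merged), CACGTG occurred 479 times in the central 200 bp of the peaks, against 250.3 expected from the dinucleotides of each window, a log2 ratio of 0.93 that ranked 6. The RBPJ core TGGGAA ranked 1, with a log2 ratio of 1.33 and 3422 occurrences against 1364 expected. The related E′-box CACGTT ranked 349 (log2 ratio 0.23). Against windows 5 kb to either side of the peaks, CACGTG ranked 524 with a log2 ratio of 0.71 and TGGGAA ranked 566 with 0.61, so the order of the pair was reversed there. Those windows were not matched to the peaks for base composition. The hexamer CACGCG ranked 56 against them (log2 ratio 3.28) and 737 against the dinucleotides (0.05). These ranks are the reason for the choice of genes and are given as a description, as are all E-box counts that follow.

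The sequences below show, for each gene, an E-box or E′-box inside the RBPJ peak over its start, chosen for closeness to the start, to a second E-box or to an RBPJ core. A distal stretch is added for Nr1d1 and for Bhlhe40, each from a peak away from the start that holds CACGTG. All are GRCm38.p6 sequence on the gene's own strand, and capitals mark the E-box, the E′-box and the RBPJ core in either orientation. The E-box reads CACGTG on both strands. The reversed E′-box reads AACGTG. A reversed RBPJ core reads TTCCCA.
Per1 upstream, chr11:69095027-69095112, plus strand: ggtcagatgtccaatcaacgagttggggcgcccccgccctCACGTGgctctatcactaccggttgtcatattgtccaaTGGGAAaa
Per2 at the start, chr1:91459304-91459329, minus strand: cgcgcgcggtCACGTTttccactatg
Per2 intron, chr1:91457242-91457299, minus strand: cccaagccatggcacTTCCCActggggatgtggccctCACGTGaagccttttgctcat
Cry1 upstream, chr10:85185069-85185154, minus strand: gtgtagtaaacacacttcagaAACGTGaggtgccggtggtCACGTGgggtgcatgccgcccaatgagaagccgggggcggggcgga
Cry2 upstream, chr2:92434190-92434275, minus strand: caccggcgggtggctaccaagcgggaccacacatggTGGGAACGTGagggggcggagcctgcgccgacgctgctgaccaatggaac
Nr1d1 upstream, chr11:98775360-98775445, minus strand: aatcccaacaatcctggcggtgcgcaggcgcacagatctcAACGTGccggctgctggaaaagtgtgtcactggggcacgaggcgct
Nr1d1 intron, chr11:98773839-98773899, minus strand: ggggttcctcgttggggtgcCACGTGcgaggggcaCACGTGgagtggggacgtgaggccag
Nr1d1 distal, chr11:98783502-98783587, minus strand: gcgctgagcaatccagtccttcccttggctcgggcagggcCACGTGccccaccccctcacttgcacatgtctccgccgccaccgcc
Nr1d2 intron, chr14:18238633-18238718, minus strand: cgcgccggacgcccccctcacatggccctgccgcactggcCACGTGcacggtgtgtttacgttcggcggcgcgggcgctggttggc
Bhlhe40 upstream, chr6:108660332-108660417, plus strand: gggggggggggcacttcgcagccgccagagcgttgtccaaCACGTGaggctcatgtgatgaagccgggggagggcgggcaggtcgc
Bhlhe40 distal, chr6:108571123-108571208, plus strand: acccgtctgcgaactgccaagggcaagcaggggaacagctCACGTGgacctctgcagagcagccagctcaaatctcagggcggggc
Bhlhe41 upstream, chr6:145865559-145865613, minus strand: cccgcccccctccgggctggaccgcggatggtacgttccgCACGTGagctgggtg
Clock intron, chr5:76303954-76304039, minus strand: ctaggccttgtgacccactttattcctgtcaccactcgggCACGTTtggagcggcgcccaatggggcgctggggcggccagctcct
The Cry2 stretch is the one in which the RBPJ core runs straight into an E′-box, as TGGGAACGTG, with 2 bases shared. That joined string was present in 37 of all 11094 peaks (0.334%) and in 19 of the 4547 peaks that cover a gene start (0.418%). In the Per1 stretch the E-box and the RBPJ core stood 32 bases apart, and in the Per2 intron 16. Letter matches of this kind are a description of the sequence and not evidence that a factor sits there.

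Each gene was given its body plus a regulatory domain (5 kb upstream and 1 kb downstream of the start, extended by up to 1 Mb to the neighbouring genes' domains), and a peak belonged to it when the peak centre fell inside. All 9 of 9 clock genes had at least 1 peak, where 10254 of all 21938 protein-coding genes did (46.7%). Off chromosomes 4 and 7, where no member lies, the share of all genes was 53%. The 9 genes were chosen with earlier results of these data known, so the counts of peaks and of covered starts are a description. The 21 peaks compare with 8.32 that the peak density of each chromosome gives for domains of this length, which sum to 1948 kb. This density, here and per gene below, is taken as even along a chromosome. Of all 11094 peaks, 4547 cover a gene start and every domain holds a start. The excess was therefore not separated from coverage of the starts. With the 5 kb and 1 kb around the start and the gene body alone, without the extension, the count was 11. Under the full rule Bhlhe40 alone held 8 of the 21 peaks, and without it the count was 13 against 6.09. The gene's 5′ end lay inside a peak for 9 of 9, against 5139 of all genes (23.4%). A peak centre fell within 1 kb of the start for 7 of 9, against 5456 of all genes (24.9%), the exceptions being Per1 at 1683 bp and Nr1d1 at 1074 bp, whose peaks were wide and reached well into the gene. The other 12 peaks lay elsewhere in the domains of Per2, Nr1d1, Bhlhe40 and Clock.

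**Figure D1:**
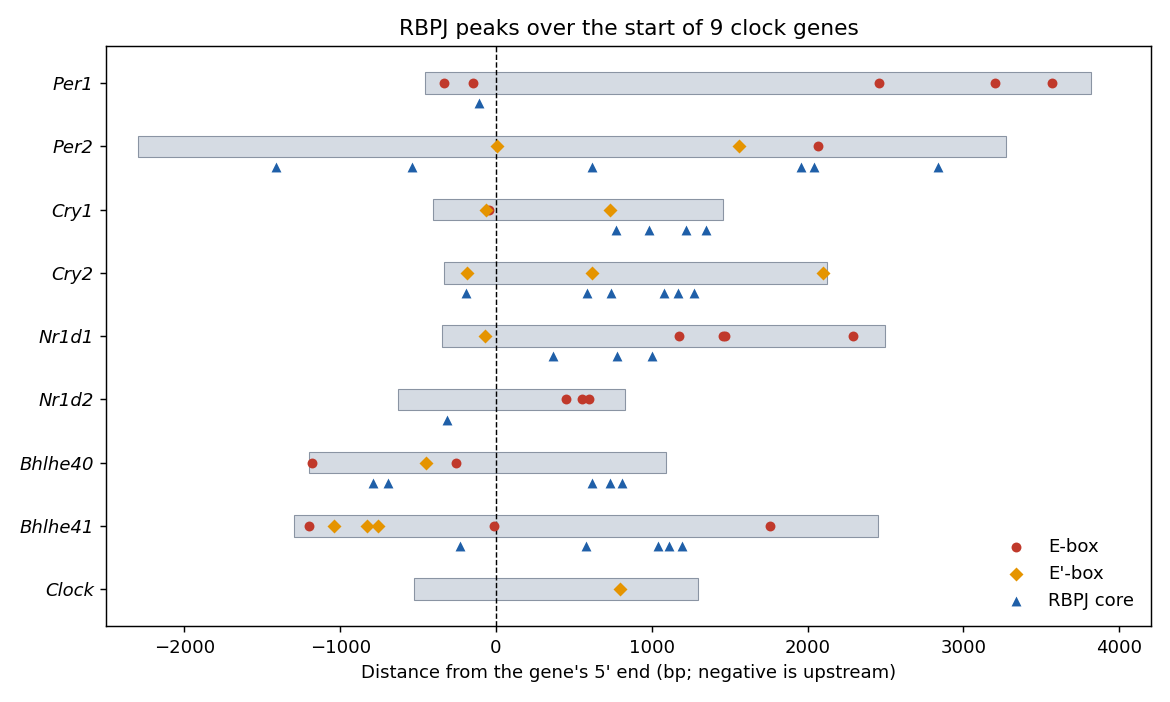
RBPJ peaks covering the start of the 9 clock genes, as bars against the distance in bp from the gene's 5′ end (negative is upstream), with E-boxes (CACGTG, circles), E′-boxes (CACGTT, diamonds) and the RBPJ core (TGGGAA, triangles) at their positions. Every bar crosses the start, 8 of 9 reach farther downstream than upstream, and the Clock bar holds no triangle.

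The peaks over the 9 starts were broad. Their widths ran from 1455 to 5568 bp with a median of 2459 bp, where the 4547 start-covering peaks of the whole list had a median of 905 bp and quartiles of 568 and 1593 bp. The Per2 peak, the widest, was broader than 98.9% of start-covering peaks, the Per1 peak than 97.7% and the Bhlhe41 peak than 96.8%. The narrowest was that of Nr1d2, which was still broader than 71.9%. Each covered the start of its own gene and of no other. The median reach was 528 bp upstream and 2123 bp downstream for the clock genes, and 278 and 502 bp for the 3982 peaks that cover a single gene start. Of those 3982 peaks, 2586 (64.9%) reached farther downstream, as did 8 of 9 clock peaks, all except that of Bhlhe40. Peaks lying within 2 kb of each other had been merged by the authors, so a broad peak may join several summits, and the list gives neither summit nor height.

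**Figure D2:**
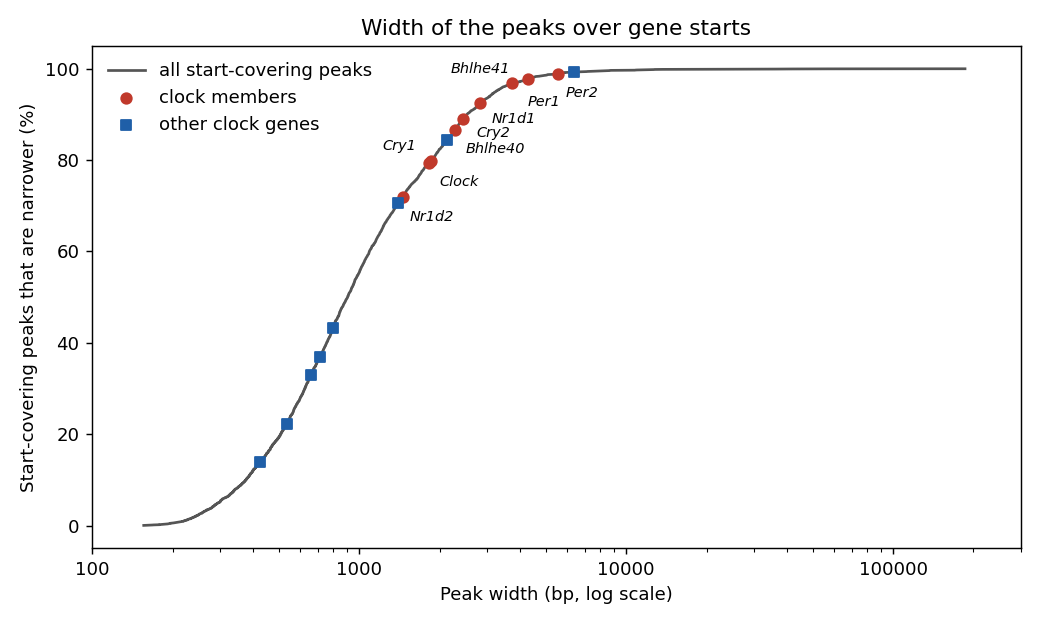
Share of all 4547 start-covering RBPJ peaks that are narrower (%) against peak width (bp, log scale), with the 9 clock members as circles and 8 other clock genes as squares on the curve of all such peaks. The members sit between 1455 and 5568 bp, all above the median of 905 bp, while 5 of the squares sit below it.

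The PER and CRY genes encode the repressors that close the loop. Per1 (ENSMUSG00000020893, chr11:69095217-69109960, plus strand) had 1 peak, chr11:69094764-69099037, of 4274 bp from 453 bp upstream to 3820 bp downstream of the start. It held 5 CACGTG, at 331 and 147 bp upstream and, in an intron, at 2459, 3205 and 3568 bp downstream, the most in any single peak of the 9 genes. Among the 1228 start-covering peaks of the same width range (1455 to 5568 bp), 2 had 5 or more, the Per1 peak being one. Its single TGGGAA lay 109 bp upstream, beside the nearer of the upstream E-boxes, and 6 copies of the RBPJ variant TGAGAA were spread over it. The gene has 5 annotated starts of protein-coding transcripts, of which 2 fell inside the peak.

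Per2 (ENSMUSG00000055866, chr1:91415982-91459324, minus strand) had 2 peaks. The one over its start, chr1:91456052-91461619, reached from 2295 bp upstream to 3272 bp downstream and held 6 TGGGAA, 1 CACGTG in an intron 2064 bp downstream, and CACGTT at 7 bp downstream, in the 5′ untranslated region, and at 1559 bp. This was the member peak with a D-box on each side of the start: TTATGTAA 121 bp upstream and TTACGTAA 225 bp downstream. D-boxes are the sites of the PAR bZIP activators and of NFIL3, a further arm of the clock. The other Per2 peak, chr1:91436348-91436848, was 501 bp wide, lay in an intron 22.7 kb downstream of the start, and held 2 TGGGAA and no E-box. Its centre was marginally closer to the start of Hes6, a Hes-family repressor gene, at 22560 bp than to that of Per2 at 22726 bp.

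Cry1 (ENSMUSG00000020038, chr10:85131700-85185064, minus strand) had 1 peak, chr10:85183609-85185467, of 1859 bp, although its domain was 250.1 kb long and the chromosome's density would give 1.22. CACGTG lay 47 bp and CACGTT 66 bp upstream of the start, with 13 bases between them, the closest E-box couple upstream of a start in these genes. A further CACGTT stood in a coding exon 730 bp downstream, and the 4 TGGGAA lay between 769 and 1349 bp downstream in an intron. The peak also held 5 CACGCG, the class C E-box that HES and HEY repressors bind. Cry2 (ENSMUSG00000068742, chr2:92403646-92434043, minus strand) had 1 peak, chr2:92431920-92434378, of 2459 bp. It contained no CACGTG, 3 CACGTT (189 bp upstream, then 619 and 2097 bp downstream) and 6 TGGGAA, of which the one 193 bp upstream formed the joined string printed above. The couple of cryptochrome genes thus differed in which letters their peaks held, with the single CACGTG on the Cry1 side.

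The REV-ERB genes encode nuclear receptors that repress Bmal1. Nr1d1 (ENSMUSG00000020889, chr11:98767932-98775333, minus strand) had 3 peaks in a domain of 48.9 kb, where density gives 0.364. The peak over its start, chr11:98772838-98775681, was 2844 bp wide and held 4 CACGTG, all in an intron at 1176, 1456, 1471 and 2292 bp downstream, plus CACGTT 69 bp upstream. The middle couple of CACGTG was separated by 9 bases, as in the intron sequence above, the shortest spacing between E-boxes in the start peaks of the 9 genes. A D-box TTATGTAA lay 1249 bp downstream. The 2 other peaks lay upstream of the gene. One, chr11:98783460-98783720, was 261 bp wide with its centre 8257 bp upstream, and it was the only one of the 21 clock peaks to hold CACGTG in its central 200 bp, without TGGGAA or TGAGAA anywhere in it. The other, chr11:98786635-98789143, was 2509 bp wide at 12556 bp upstream, with 2 CACGTG, 1 CACGTT, 4 TGGGAA and 1 TTATGTAA, and the start of Msl1 was nearer to it (7627 bp). Every Nr1d1 peak therefore carried CACGTG.

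Nr1d2 (ENSMUSG00000021775, chr14:18204054-18239127, minus strand) had 1 peak in a domain of 605 kb, where density gives 2.1. The peak, chr14:18238300-18239754, was the narrowest of the starts at 1455 bp and was centred 100 bp from it. Its 3 CACGTG were gathered in an intron at 451, 554 and 599 bp downstream, with TTATGTAA at 520 bp, inside the run of E-boxes. The single TGGGAA lay 315 bp upstream, 761 bases from the nearest E-box, the widest gap among the start peaks that hold both.

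Bhlhe40 and Bhlhe41 encode DEC1 and DEC2, which compete at E-boxes. Bhlhe40 (ENSMUSG00000030103, chr6:108660629-108666925, plus strand) had 8 peaks in a domain of 564 kb, where density gives 2.23, and 101 genes in all (0.46%) had 8 or more. Genes with a peak had a median of 1. The start peak, chr6:108659431-108661721, was 2291 bp wide, reached 1198 bp upstream and 1092 bp downstream, and held CACGTG at 254 and 1183 bp and CACGTT at 450 bp, all upstream, with 5 TGGGAA. Upstream of it lay 5 peaks, centred 89.6, 128, 148, 150.1 and 234 kb away. Those at 128, 148, 150.1 and 234 kb were each centred in an intron of another protein-coding gene. Their assignment to Bhlhe40 rests on the domain rule. That at 89.6 kb, chr6:108570467-108571602, of 1136 bp, was the one with CACGTG, and there a TGGGAA stood 67 bases away. The farthest, 274 bp wide in an intron, lay nearer to the start of Itpr1 (214003 bp) and held neither E-box nor RBPJ letters. Downstream, past the gene's end, the widest of the 7 distal peaks, chr6:108668302-108670780 (2479 bp), was centred 8912 bp from the start with 1 CACGTT and 3 TGGGAA, and a peak of 683 bp followed at 49.3 kb with 2 TGGGAA.

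Bhlhe41 (ENSMUSG00000030256, chr6:145858243-145865558, minus strand) lies on the same chromosome and had 1 peak in a domain of 179 kb. The peak, chr6:145863105-145866852, was 3748 bp wide and held 3 CACGTG and 3 CACGTT, the most E-boxes and E′-boxes in any one peak of these genes. The nearest CACGTG was 12 bp upstream, the closest to a start among all CACGTG in these peaks, and the others stood 1201 bp upstream and 1756 bp downstream, the last in the untranslated region. The CACGTT were 756, 829 and 1042 bp upstream. Thus the paralogs differed in the number of peaks under the domain rule, 8 against 1, and both had CACGTG upstream of the start.

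**Figure D3:**
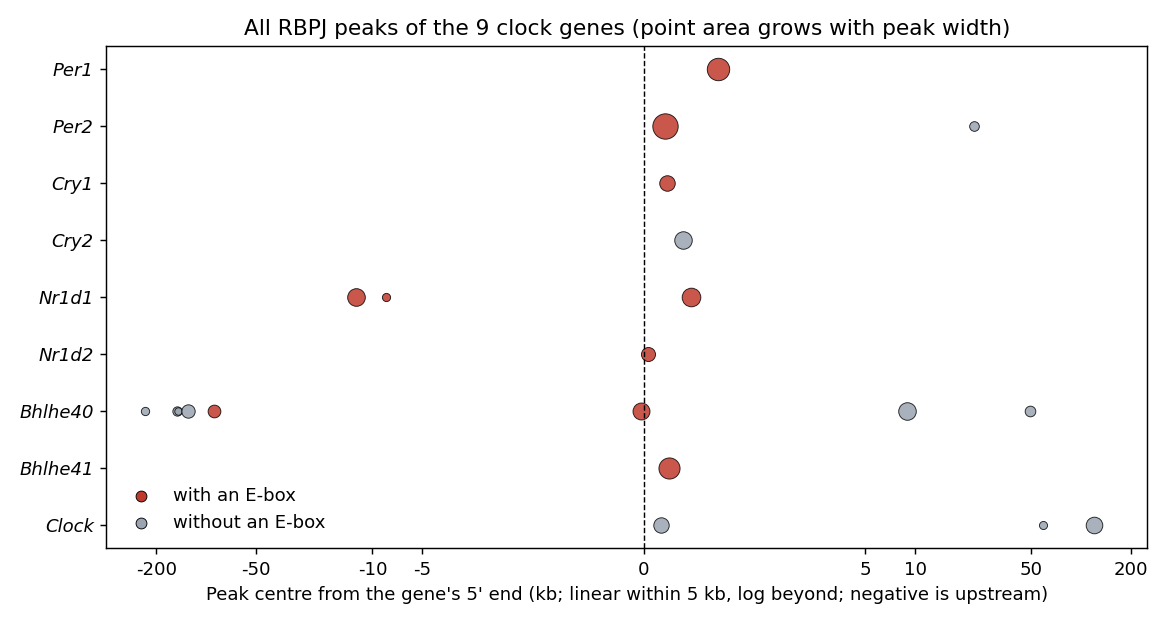
Positions of all 21 RBPJ peaks of the 9 clock genes, as the distance of the peak centre from the gene's 5′ end in kb (linear within 5 kb, log scale beyond, negative is upstream), with point area growing with peak width and red points for peaks holding CACGTG. Points lie near 0 in every row, 5 genes have no other, and Bhlhe40 has 8.

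The activator gene differed from the others in the letters its start peak held. Clock (ENSMUSG00000029238, chr5:76209868-76304792, minus strand) had 3 peaks in a domain of 145 kb, where density gives 0.841. The start peak, chr5:76303494-76305320, was 1827 bp wide with a GC content of 71.6%, the highest of the 9. It held no CACGTG, 1 CACGTT at 795 bp downstream in an intron, 2 CACGCG, 2 AGGTCA and, alone among the start peaks, neither TGGGAA nor TGAGAA. A peak of 241 bp, chr5:76245457-76245697, lay in an intron 59.2 kb downstream with 1 TGAGAA. The peak of 2178 bp at chr5:76183821-76185998, 119.9 kb downstream, held 4 TGGGAA and 1 CACGTT, and sat 1029 bp from the start of Tmem165, the neighbouring gene, so its assignment to Clock rests on the domain rule.

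The 9 start peaks were set beside the 1228 start-covering peaks of the same width range, 27% of all start-covering peaks and the 9 included, since a broader peak has more room for any letters. CACGTG was in 7 of 9, against 36.9% of the 1228, with 19 sites where the density in those peaks gives 5.45. CACGTT was in 7 of 9 against 37.9%, with 13 sites against 5.49. Per kb of peak this was 0.722 and 0.494 sites, against 0.207 and 0.209. TGGGAA was in 8 of 9, close to the 87.8% of the 1228, with 31 sites against 27.3, and TGAGAA in 7 of 9 with 19 against 17.2, so the RBPJ letters were about as dense in clock peaks as in other broad start peaks. The class C E-box CACGCG (14 sites against 12.1) and the nuclear receptor half-site AGGTCA (12 against 13.3) also stood near that background. D-boxes were few. TTATGTAA was in 3 of 9 peaks (Per2, Nr1d1 and Nr1d2) and 7% of the 1228, with 3 sites against 0.854, and TTACGTAA in 1 of 9 and 1.06%, with 1 site against 0.116. GC content ran from 52.4% to 71.6% with a median of 59.2%, beside a median of 56.7% and quartiles of 52.2% and 61.7% in the 1228.

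**Figure D4:**
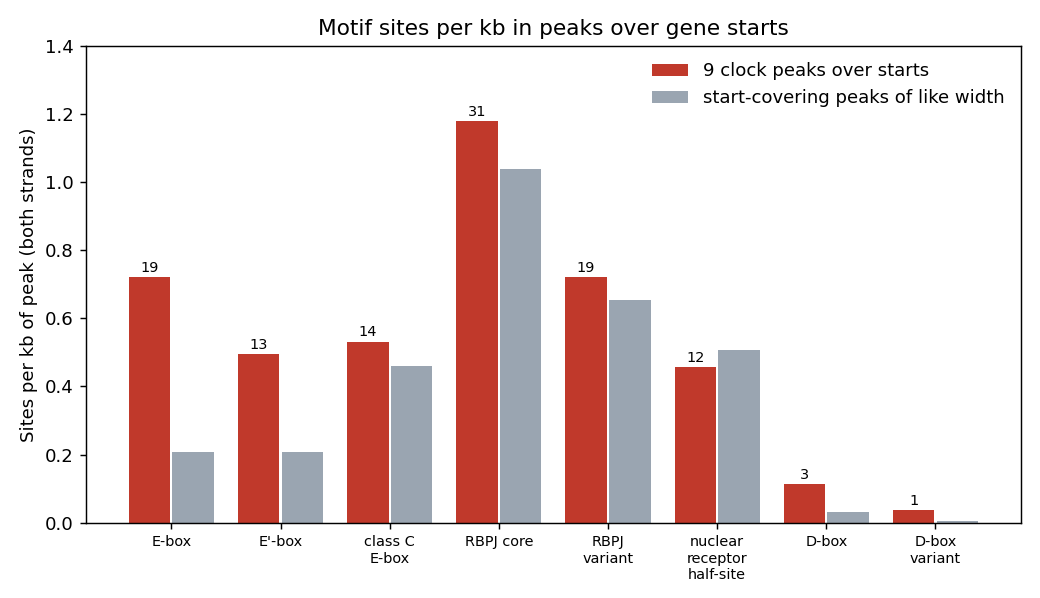
Motif sites per kb of peak on both strands in the 9 clock peaks over starts (red bars, with the number of sites above each) and in the 1228 start-covering peaks of like width (grey bars). The E-box (0.722 against 0.207) and the E′-box (0.494 against 0.209) have the largest absolute differences in sites per kb, the D-box (0.114 against 0.0324) rests on 3 sites, and the RBPJ core (1.18 against 1.04) is similar.

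Positions of the E-boxes varied from gene to gene. Of the 19 CACGTG in start peaks, 7 were upstream and 12 downstream of the start, 6 were within 500 bp, and 11 were over 1 kb away. In 4 of 9 peaks (Per1, Nr1d1, Nr1d2 and Bhlhe41) there were 3 or more, which 30 of the 1228 peaks also had (2.44%). CACGTG or CACGTT was present in the start peak of all 9 genes and within 500 bp of the start in 8 (not Clock), a distance set after the values were seen, where 542 of the 1419 genes under the 1228 peaks (38.2%) and 6489 of all 21938 genes (29.6%) had one. A tandem of CACGTG or CACGTT with 6 or 7 bases between, the spacing described for CLOCK and BMAL1 sites, occurred in none of the 21 peaks and in 4 of all peaks (0.0361%). Both sites had to match exactly, so pairs with a looser second site were not counted.

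Few of the E-boxes lay in the middle of a peak. In the central 200 bp, CACGTG was in 1 of the 21 clock peaks, the distal one at Nr1d1, and in 0 of 9 start peaks. This was near the background, since 455 of all 11094 peaks had it (4.1%, exact 95% interval 3.74% to 4.49%, counting error only). TGGGAA was in the central 200 bp of 7 of 21, and 2862 of all peaks (25.8%). Over whole peaks the counts were 10 of 21 with CACGTG (17.8% of all peaks) and 17 of 21 with TGGGAA (64.9%). The 12 peaks away from a start, 153 to 2509 bp wide, held CACGTG in 3 and TGGGAA in 9, beside 13.3% and 68.5% of the 6547 peaks of the list that cover no gene start. All 19 CACGTG of the start peaks thus lay outside the central 200 bp, which is a small part of peaks this broad.

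RefSeq promoter windows (GRCm38.p6, from 250 bases before to 50 after the start) were matched for 7 of the 9 genes, Per2 and Bhlhe40 having no entry. Of their 10 windows, 8 lay inside the start peak. The RefSeq windows of Per1, chr11:69098699-69098998 and chr11:69099902-69100201, belong to starts inside the gene as GENCODE draws it, so the first holds the last of the 5 CACGTG in the peak and the second lies past the peak's end. CACGTG was in the promoter of 3 genes (Per1, Cry1 and Bhlhe41) and CACGTT in 3 (Cry1, Cry2 and Nr1d1). TGGGAA was in 2, Cry2 and the Per1 window outside the peak. Counted by window, as the background is, these were 3, 3 and 2 of the 10, and across 32851 promoter windows the shares were 7.15%, 4.68% and 25.6%.

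For the rest of the clock, 18 further genes were read by the same rule: partners and paralogs of the activators, ROR receptors, PAR bZIP factors, NFIL3, and the kinases and F-box proteins that set PER and CRY stability. Of these, 11 had a peak (22 peaks) and 8 had the start inside a peak, beside 46.7% and 23.4% of all genes. Among the DNA-binding factors and repressors, the start was covered in Nfil3 (6390 bp wide, a D-box repressor), Rorb (1403 bp, an activator through ROR elements), Ciart (715 bp, the repressor CHRONO) and Tef (426 bp, a D-box activator). It was also covered in Csnk1d (2142 bp, the kinase CK1δ) and in Fbxw11 (801 bp) and Btrc (536 bp), which code for F-box proteins. The median width of these 8 peaks was 758 bp, below the 2459 bp of the members. CACGTG was present in 4 of the 8, where 24.2% of all 4547 start-covering peaks held it. There were 4 sites in Ciart, 2 in Nfil3 and 1 each in Tef and Csnk1d. This gave 0.612 sites per kb over 13.1 kb, beside 0.722 in the start peaks of the members and 0.196 over all 11094 peaks. Npas2, Hlf and Csnk1e had peaks only away from the start, the nearest at 41.6, 35.2 and 13.8 kb.

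The activator gene Arntl, which encodes BMAL1, had no peak, and neither had Per3, Rora, Dbp, Fbxl21 or Timeless. The nearest peak to Arntl was 506 kb from its start, to Dbp 109 kb and to Per3 996 kb. Those 3 genes are on chromosomes 7, 7 and 4, which carried 146 and 158 peaks for chromosomes 7 and 4, so that absence there could not be told apart from the low number of peaks on those chromosomes. Off them, 11 of 15 further clock genes had a peak, beside 53% of all genes off these chromosomes. Rora had none in a domain of 1552 kb, where density gives 8.27. None of the 9 members lies on chromosome 4 or 7.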

How the data were processed

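Members, gene lists and motifs were chosen with earlier results of these data known. The authors aligned RBPJ ChIP-seq reads to GRCm38 with Bowtie, removed duplicates and called peaks per replicate with MACS2 and PeakRanger. Neighbours less than 2 kb apart were joined, a region needed 3 or more overlapping calls over callers and replicates, and blacklisted regions were dropped. The deposited peak lists used here give start and end positions in bp, without height, summit or count, so the depth behind them is unknown here. Both RBPJ files were identical and used once, and 8 samples were not analysed here.

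From there, a peak's centre was assigned to genes by GENCODE M21 domains (5 kb up, 1 kb down, extended up to 1 Mb, plus gene body) over all 21938 protein-coding genes. Starts were read as counted from 1. Letters were searched on both strands of GRCm38.p6 with Python 3.11.15, numpy 2.4.6, scipy 1.17.1 and pysam 0.24.0; figures used matplotlib 3.10.9. The scripts were tested on simulated data. No test between groups was possible: backgrounds are shares over all genes, all peaks, or start-covering peaks of like width. Named were the 9 members, every peak of a member with up to 5, otherwise the nearest, the widest and those with CACGTG; the 18 other clock genes by presence of a peak (counted in full, though some are not reported here by name); and genes whose start was nearer to a member's peak. Further Bhlhe40 peaks were given for completeness after their values were seen. Alternatives changed the domain, peak position, width, start site, distance, window and replicate.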

Additional observations from a re-analysis of the deposited data

How the results depend on the processing

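Across 62 alternative values for 7 results, 49 moved little (counts within 1.5 times, the share of all genes within its binomial interval) and 13 moved by more. Those 49 include the values without replicate 1 or replicate 2, which could not change. All 9 members kept a peak under each alternative, and 11 of the 18 other clock genes had one under each. With basal domains and gene body only, peaks at members numbered 11, those with TGGGAA 9, and the share of all genes with a peak was 35%. That share was 43.3% with extension to at most 100 kb, 45.6% without the gene body, 48.1% with any overlap, 34.9% with peaks of at least 500 bp, and 53% without chromosomes 4 and 7. Peaks with CACGTG numbered 1 in the central 200 bp and 1 in the central 100 bp, and those with TGGGAA 7 and 5. Members with a peak centre within 500 bp of the start numbered 4. Leaving out chromosomes 4 and 7, and counting starts inside a peak, were added after the data were seen. Without replicate 1 or replicate 2 every value stayed the same because the files are identical: 9 members, 21 peaks, 10 with CACGTG, 17 with TGGGAA, 11 other clock genes, 46.7% of all genes and 7 within 1 kb of the start. No paired analysis was possible because the result comes from 1 list of positions and no test. With no counts or heights, no strength of binding could be compared, and nothing here measures expression or the binding of CLOCK or BMAL1.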
